A study of Mus musculus with 5 samples.

Results

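Crypt-type goblet cells with Ccl6 and Ccl9 were described in a droplet library of lineage-traced cells from the mouse small intestine. The library pooled tdTomato+ cells of 4 C57Bl/6J mice aged 6 weeks, with the genotype Neurog3-Cre; R26-LSL-tdTomato and no treatment. Neurog3 is switched on in progenitors of enteroendocrine cells (EECs), and Cre then turns on the reporter for good, which marks the descendants of those progenitors along with the progenitors themselves. The second dataset was bulk RNA-seq of CCK+ and CCK- epithelial cells from 6 C57Bl/6J mice of 6 to 8 weeks, genotype Cck-Cre; R26-LSL-tdTomato. The letter in each library name was taken as the mouse, which the labels do not state. Mice A, B and F were fasted overnight, and mice C, D and E were fasted and then refed with Ensure. On this reading each mouse gave 1 CCK+ and 1 CCK- library, and each of the 4 groups held 3 libraries. CCK+ cells were sorted by the reporter under Cck-Cre, and neither CCK+ nor CCK- libraries are goblet cell preparations. A UMI (unique molecular identifier) marks 1 captured RNA molecule, and a level is the number of UMIs of a gene per 10000 UMIs.

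The cells were chosen by measured values. A barcode counted as a cell if it had over 1000 genes and less than 10% mitochondrial UMIs, which left 9451. A goblet gate then required a summed level of at least 500 for 4 goblet genes, Zg16, Fcgbp, Clca1 and Spink4, and a level of the EEC gene Chgb under 20, and 4058 cells passed it. Of these, 243 had at least 1 UMI each of Ccl6 and Ccl9, no UMI of 2010109I03Rik and fewer than 3 of 6 interferon-induced genes (Ifit1, Ifit1bl1, Rsad2, Cmpk2, Ddx60 and Slfn4). These 243 crypt-type cells were 2.57% of all cells (exact binomial 95% interval 2.26 to 2.91%) and 5.99% of the gate (5.28 to 6.76%). The Ccl9 UMI decided most of the choice, since 97.1% of cells in the gate had a UMI of Ccl6 and 13% had one of Ccl9. Both chemokines were present in 516 cells of the gate, 287 of which had no 2010109I03Rik, and 44 of these were left out for their interferon-induced genes. The rest of the gate was 1528 surface-type cells with 2010109I03Rik, 181 cells with both chemokines and 2010109I03Rik, 802 cells with 3 or more interferon-induced genes, and 1304 remaining cells. Because the library is a pool with no record of which mouse a cell came from, cells are not replicates. No test was possible within it, and all intervals cover counting error only.

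Goblet cells make and secrete the mucus that covers the gut. Mucin 2 (Muc2), an exceptionally large glycoprotein, is folded in the endoplasmic reticulum with the help of the disulfide isomerase Agr2, and is then glycosylated, packed into granules and released. Goblet cells are born in the crypt and move up the villus as they mature, and 2010109I03Rik was taken here to mark the surface type. Ccl6 and Ccl9 are CC chemokines, small secreted proteins that attract leukocytes, and both can act through the receptor Ccr1. Guca2a encodes guanylin, a peptide that activates guanylate cyclase C and drives chloride and water secretion, and Retnlb encodes a resistin-like protein with antibacterial activity. The word crypt-type is a working name: where in the crypt or villus a cell sat was not measured.

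Ccl6 and Ccl9 are neighbors on chromosome 11, both on the minus strand (Ccl6 at 83587882 to 83593087 and Ccl9 at 83572919 to 83578636, mm10), with 9245 bases between them. The other markers lie apart, Retnlb on chromosome 16 (48816856 to 48818892), Guca2a on chromosome 4 (119637704 to 119639471) and Agr2 on chromosome 12 (35992907 to 36004087), all on the plus strand. The promoters of the neighboring chemokine genes are shown because the choice of cells turned on one of them. Both are from RefSeq on GRCm38.p6, the 250 bases before the start, 5′ to 3′ on the gene's strand, at chr11:83593088-83593337 for Ccl6 and chr11:83578637-83578886 for Ccl9. Capitals mark the E-box CAGCTG, which 12.8% of all 27025 RefSeq promoters of this length held on either strand, and the TATA box TATAAA, which 13% held.
Ccl6: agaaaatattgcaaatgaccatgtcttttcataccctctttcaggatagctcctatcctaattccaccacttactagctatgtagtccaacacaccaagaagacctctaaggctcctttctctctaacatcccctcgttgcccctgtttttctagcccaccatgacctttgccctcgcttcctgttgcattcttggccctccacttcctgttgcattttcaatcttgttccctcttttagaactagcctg
Ccl9: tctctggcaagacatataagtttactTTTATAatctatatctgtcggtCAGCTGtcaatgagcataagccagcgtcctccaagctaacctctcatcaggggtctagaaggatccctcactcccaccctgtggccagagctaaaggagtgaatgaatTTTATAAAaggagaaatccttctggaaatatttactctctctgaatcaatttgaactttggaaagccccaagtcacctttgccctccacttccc
Ccl9 held 1 copy of CAGCTG and 3 of TATAAA, of which the pair nearest to the start overlaps, whereas Ccl6 held neither. Motifs of intestinal transcription factors were also searched, and neither promoter held AGATAA, which 10.3% of all promoters held. The CDX motif TTTATG, present in 11.1% of promoters, was in neither. A match of letters is not a binding site.

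The endoplasmic reticulum genes described further on are represented by 3 promoters that hold the endoplasmic reticulum stress element. Its letters are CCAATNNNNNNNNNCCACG, searched on both strands, and they are capitalized here apart from the 9 bases of any kind between the ends. These are the bases before the annotated start of Pdia6 (chr12:17266339-17266544, plus strand), Hsp90b1 (chr10:86705510-86705694, minus strand) and Creld2 (chr15:88819396-88819645, plus strand).
Pdia6: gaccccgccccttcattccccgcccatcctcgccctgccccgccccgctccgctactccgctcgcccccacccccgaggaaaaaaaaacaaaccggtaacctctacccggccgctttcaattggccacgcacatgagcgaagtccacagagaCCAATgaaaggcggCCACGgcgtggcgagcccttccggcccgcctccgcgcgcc
Hsp90b1: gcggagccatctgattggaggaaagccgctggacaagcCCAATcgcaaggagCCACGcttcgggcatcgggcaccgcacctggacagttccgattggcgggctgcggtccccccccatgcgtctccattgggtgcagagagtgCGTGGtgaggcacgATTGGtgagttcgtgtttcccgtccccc
Creld2: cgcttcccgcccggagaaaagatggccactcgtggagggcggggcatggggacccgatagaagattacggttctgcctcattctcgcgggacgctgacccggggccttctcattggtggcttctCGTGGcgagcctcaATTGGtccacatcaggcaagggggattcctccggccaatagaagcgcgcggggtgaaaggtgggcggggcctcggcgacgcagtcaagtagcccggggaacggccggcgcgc
The element was in 33 of the 27025 promoters (0.122%) and in 7 of the 29 genes of the endoplasmic reticulum list with a promoter in the RefSeq table (24.1%).

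Crypt-type cells held a median of 8323 UMIs and 1856 genes, against 6916 UMIs and 1466 genes in surface-type cells and 6250 UMIs and 1438 genes in the remaining goblet cells. A rule that asks for a UMI favors deeper cells. Most shares of cells with a UMI compared between groups are therefore also given after every cell was thinned to 2000 UMIs. Chosen again on the thinned counts, the rule found 132 cells, of which 87 were among the 243. Mitochondrial UMIs were a median of 2.31% in crypt-type, 1.79% in surface-type and 2.25% in remaining cells. The automatic threshold of the doublet caller Scrublet marked 0 of the 9451 cells, so the 749 highest doublet scores served in its place, and 8 of them were crypt-type cells (3.29%) and 47 surface-type cells (3.08%).

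Ccl9 in the 243 cells ran from a level of 0.401 to 18.1 with a median of 1.63, and 153 cells held 1 UMI, 40 held 2 and 50 held 3 or more. Ccl6 was more abundant, at 0.999 to 109.8 with a median of 23.7. These values chose the cells and are a description. Pooled over cells, Ccl6 was at 24.9 in crypt-type cells, 24.0 in remaining cells and 16 in surface-type cells, so that the level of Ccl6 hardly separated crypt-type cells from the remaining ones.

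**Figure D1:**
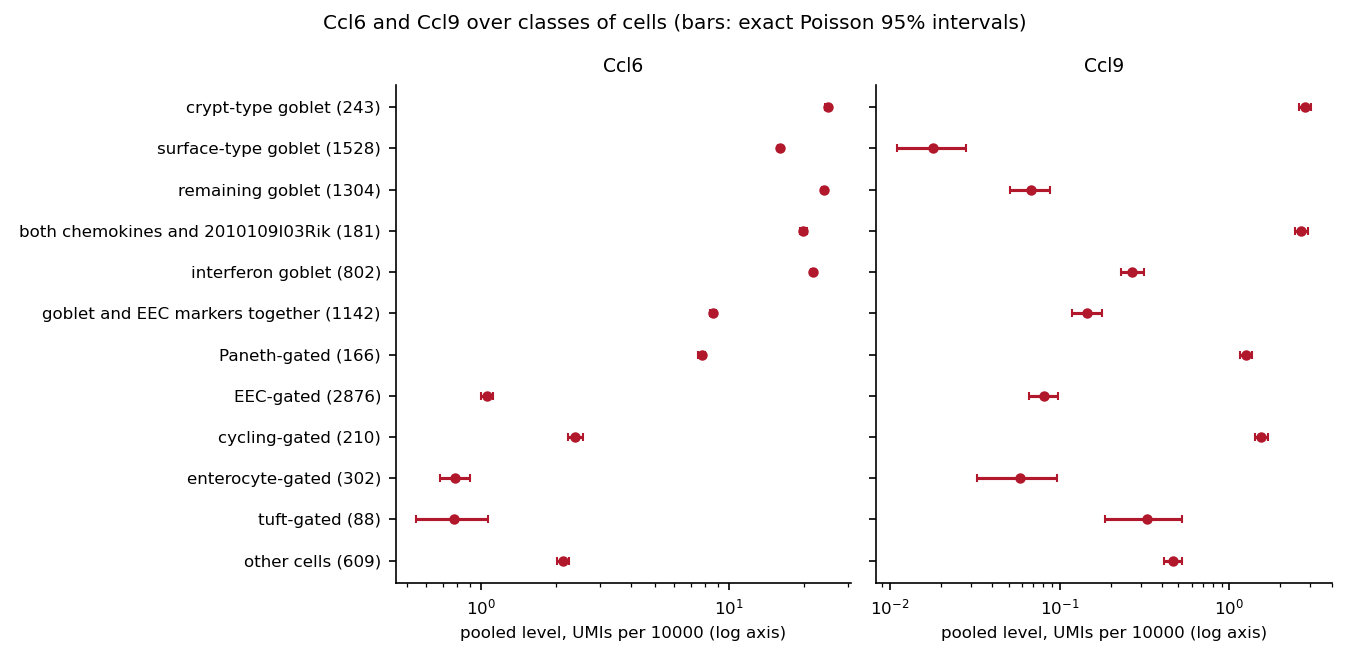
Pooled levels of Ccl6 and Ccl9 (UMIs per 10000, log axes) in crypt-type goblet cells and the other classes of cells in the library, with the number of cells in parentheses and bars for exact Poisson 95% intervals. Ccl6 stays at 16 to 24.9 over the 5 goblet classes, whereas Ccl9 outside the goblet gate is highest in cycling-gated (1.55) and Paneth-gated cells (1.25).

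Among the other cells of the library, Ccl9 was at 1.55 (1.41 to 1.69) in 210 cells gated on cell cycle genes and 1.25 (1.15 to 1.36) in 166 cells gated on Paneth genes. It was at 0.0805 in 2876 EEC-gated cells and 0.0584 in 302 enterocyte-gated cells, below the 0.224 of free RNA, the pooled profile of barcodes with up to 100 UMIs. It was at 0.467 in 609 cells that passed no gate, 0.325 in 88 tuft-gated cells, 1 of which had a UMI, and 0.145 in 1142 cells with goblet and EEC markers together, 71 of which had one. The share of cells with a Ccl9 UMI was 13% in the goblet gate, 4.3% in enterocyte-gated cells at a median of 8786 UMIs and 1.5% in EEC-gated cells at 3675 UMIs, and the last pair became 1.32% and 0.922% after thinning. In Paneth-gated cells it was 72.9%, at a median of 25108 UMIs, and 21.7% after thinning. Ccl6 had a UMI in 44% of enterocyte-gated and 33% of EEC-gated cells, which became 14.2% and 17.7% after thinning, in the opposite order, with levels of 0.782 and 1.05 against 9.29 in free RNA.

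The 3 markers that the rule did not name were all higher in crypt-type cells. They were chosen with earlier results of these data known, so their levels are a description and no independent check of the group. Guca2a, which encodes guanylin, had a pooled level of 40.3 (exact Poisson 95% interval 39.4 to 41.1) in crypt-type cells, 8.85 (8.68 to 9.03) in surface-type cells and 18.2 (17.9 to 18.4) in remaining cells. It was thus 4.55 times as high as in surface-type cells (4.42 to 4.68) and 2.22 times as high as in remaining cells. Single cells spread widely, with a lowest level of 0, a median of 21.5 and a highest of 246.5, against a median of 2.33 and a highest of 240.4 in surface-type cells, so the groups overlapped. Guca2a had a UMI in 93% of crypt-type and 70.9% of surface-type cells, which became 83.1% and 45.5% after thinning. Paneth-gated cells were at 3.83 and enterocyte-gated cells at 0.888.

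Agr2, the isomerase that goblet cells need to fold Muc2, was at 119 (117.6 to 120.5) in crypt-type, 51.5 (51.0 to 51.9) in surface-type and 67.9 (67.3 to 68.4) in remaining cells. The lowest crypt-type cell was at 4.19, the median at 95.5 and the highest at 475.3, against a median of 37.8 in surface-type cells. Nearly every goblet cell had a UMI of Agr2 (100% of crypt-type and 99.7% of surface-type cells), so this difference lay in amount and not in detection. Retnlb was at 6.01 (5.69 to 6.35) in crypt-type and 2.53 (2.44 to 2.62) in surface-type cells, 2.38 times as high (2.23 to 2.54), but its median cell was at 0 in crypt-type, surface-type and remaining cells. A UMI of Retnlb was present in 44.9% of crypt-type and 31.9% of surface-type cells (27.2% and 17.1% after thinning), and the highest cells reached 179.2 and 230.7. The pooled level of Retnlb was therefore carried by a minority of cells in both groups.

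**Figure D2:**
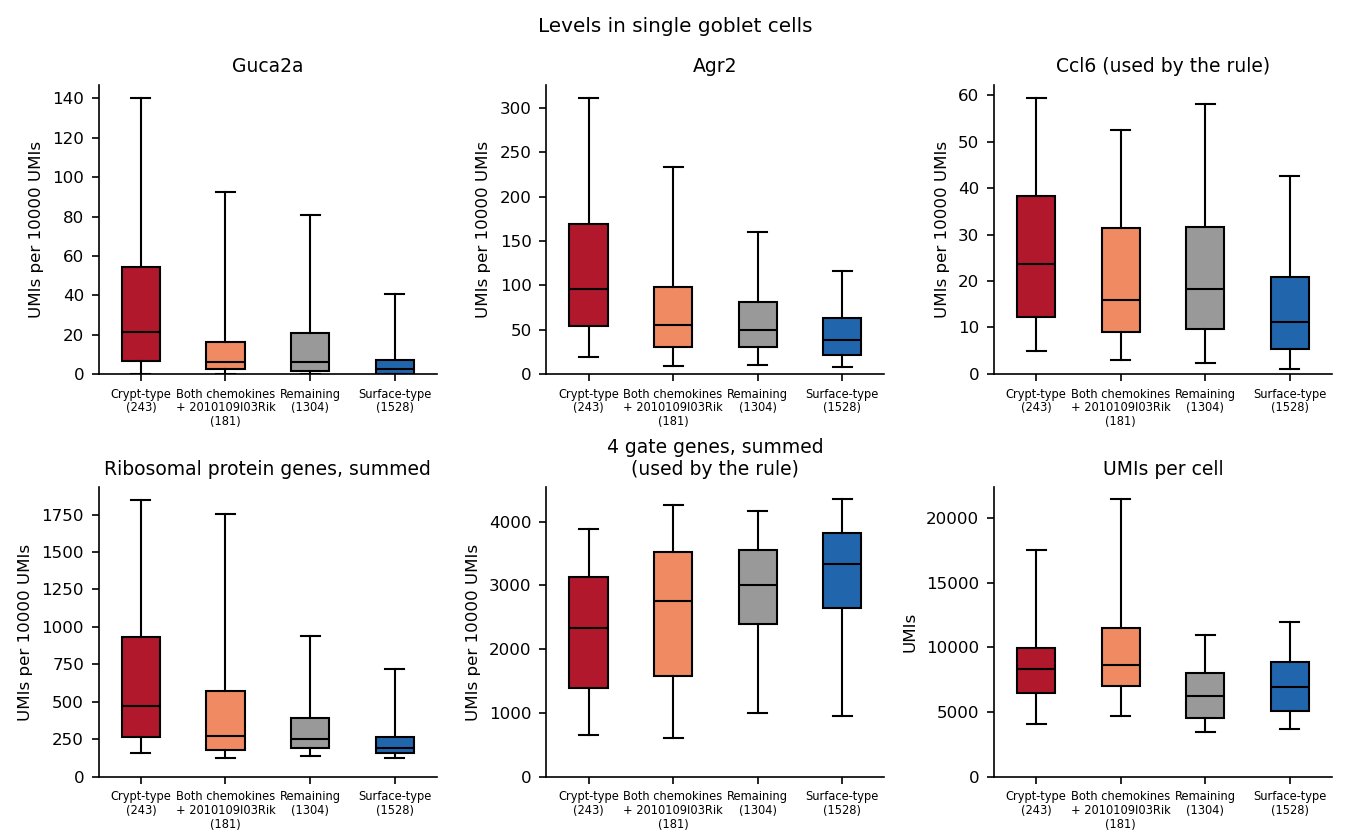
Levels in single goblet cells (UMIs per 10000 UMIs of the cell, and total UMIs in the last panel) of 4 groups, as boxes with the median and quartiles and whiskers from the 5th to the 95th percentile. Crypt-type cells (243) have the highest medians of Guca2a (21.5), Agr2 (95.5) and ribosomal protein genes (471.5) and the lowest of the 4 gate genes (2328); Ccl6 and the gate genes were used to choose the cells.

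Across all genes with a level of at least 0.5 in either group, 1954 were compared between crypt-type and surface-type cells, and 282 were at least 2-fold higher (14.4%) and 58 at least 2-fold lower (2.97%). Against the remaining goblet cells 1932 genes were compared, of which 113 were at least 2-fold higher (5.85%) and 15 at least 2-fold lower (0.776%). Both contrasts are those of the rule, so these shares are background for the gene lists and not findings. The split depended on the scale. The 4 gate genes, on which the cells were chosen, took a median of 23.3% of a crypt-type cell's UMIs and 33.4% of a surface-type cell's, and all other genes share what is left. With levels set per 10000 UMIs outside the 4 gate genes, 176 genes were higher and 136 lower against surface-type cells, and 79 higher and 32 lower against remaining cells. That scaling moved the median log2 ratio of all genes from 0.297 to 0.0409 against surface-type cells and from 0.157 to -0.0387 against remaining cells. Under it Guca2a was still 3.96, Agr2 2.01 and Retnlb 2.07 times as high as in surface-type cells.

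The genes with the highest ratios were Paneth cell genes. Of the 15 highest, 13 had a still higher level in Paneth-gated cells, among them the defensin genes AY761184 (87.9 against 10.2 in surface-type cells) and Defa17 (30.8 against 3.60) and also Mptx2 (11.5 against 1.42) and Rnase1 (2.62 against 0.343), and the other two, Fkbp11 and Pdia5, encode proteins of the endoplasmic reticulum. Defensin genes are near-identical copies, so their separate values are uncertain. These levels came from few cells. A summed level of the Paneth genes of at least 100 was found in 22 of the 243 crypt-type cells (9.05%), 29 of 1528 surface-type cells and 28 of 1304 remaining cells. The 22 cells held a median of 11988 UMIs, a median Paneth sum of 1210 and a median sum of the 4 goblet genes of 851.9, with Lyz1 at 367.6 and Agr2 at 33.7. Of 15 Paneth markers compared, 11 were at least 2-fold higher in crypt-type cells, beside 14.4% of all genes. In single cells their summed level ran from 30.3 at the 5th percentile through a median of 86.7 to 4077 at the 95th, against 30.2, 72.7 and 918.9 in surface-type cells.

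Without the cells over a Paneth sum of 100 in each group, 1 of 12 Paneth markers compared stayed at least 2-fold higher, and AY761184 was at 0.841, Mptx2 at 1.10, Lyz1 at 1.12 and Defa17 at 1.32 times the surface-type level. The markers of the crypt-type cells moved the other way, with Guca2a at 4.98, Agr2 at 2.56 and Retnlb at 2.44 times the surface-type level. Guca2b, which encodes uroguanylin, went from 4.72 to 2.28 times, and Itln1, an intelectin, from 4.06 to 1.91 times; both were high in Paneth-gated cells (Guca2b 11.7, Itln1 381.2). Among the 15 genes highest without these cells were Pdia5 (7.26 times), Fkbp11 (6.94), Hpd (5.78), Guca2a, Nme1 (4.43), Sdf2l1 (4.05), Pdia6, Pdia4 (3.42) and Bst2 (3.39). Hpd encodes an enzyme of tyrosine breakdown, Nme1 a nucleoside diphosphate kinase and Bst2 the antiviral protein tetherin. The counts of genes past 2-fold without these cells were 315 higher and 48 lower against surface-type cells.

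Genes of the endoplasmic reticulum and protein folding were higher as a group. Of 30 such genes compared, Agr2 among them, 14 were at least 2-fold higher in crypt-type than in surface-type cells, beside 14.4% of all genes. None was 2-fold lower and all 30 had a ratio over 1, with a median log2 ratio of 0.97 beside 0.297 for all genes. Against remaining cells 5 of 30 were at least 2-fold higher, beside 5.85% of all genes, and the median was 0.63, beside 0.157. Agr2, given above, was the most abundant of these by far. Among the chaperones, Hspa5 (BiP) was at 10.4 against 4.56, Calr (calreticulin) at 8.52 against 3.63 and Hsp90b1 (GRP94) at 5.36 against 2.20. The disulfide isomerases differed to unequal degrees: P4hb was at 5.36 against 3.31 and Pdia3 at 6.05 against 2.55, whereas the ratio was larger for Pdia6 at 4.22 (3.95 to 4.50) against 1.22 (1.15 to 1.28), Pdia4 at 0.967 against 0.305 and Pdia5 at 0.762 (0.649 to 0.888) against 0.114 (0.0946 to 0.135). Fkbp11, a prolyl isomerase of the secretory pathway, was at 0.991 (0.862 to 1.13) against 0.143 (0.122 to 0.167). Without thinning, it had a UMI in 37.4% of crypt-type and 7.2% of surface-type cells.

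Sdf2l1, Manf and Creld2, which are induced when unfolded protein builds up, were at 1.93 against 0.506, 5.10 against 2.08 and 1.03 against 0.373. Xbp1, a transcription factor of that response, differed little, at 2.02 against 1.76 (ratio 1.15, 1.03 to 1.27). Lman1, a cargo receptor for export from the endoplasmic reticulum, was at 1.10 against 0.357. The stress element shown above was in the promoters of 5 of 13 genes of the list at least 2-fold higher in crypt-type cells (38.5%: Calr, Creld2, Hsp90b1, Hspa5 and Pdia6) and of 2 of 12 compared but under 2-fold (16.7%: Canx and Dnajc3). Matches in so few promoters describe these genes only. Paneth-gated cells, which also secrete, were lower than crypt-type cells for Pdia6 (0.673), Pdia5 (0.0741) and Hspa5 (1.89), and had Fkbp11 at 0.701.

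Ribosomal protein genes were higher almost without exception. Of 79 compared with surface-type cells, 75 were at least 2-fold higher, beside 14.4% of all genes, and the median log2 ratio was 1.36. Against remaining cells 47 of 79 were at least 2-fold higher, beside 5.85% of all genes, with a median of 1.06. Rpl3, of the large ribosomal subunit, was at 7.95 against 2.26, and Rps4x, of the small one, at 12.1 against 3.54. The summed level in single cells had a median of 471.5 in crypt-type, 193.2 in surface-type and 252 in remaining cells, with 5th to 95th percentiles of 155.1 to 1846 in crypt-type cells and 123.3 to 720.7 in surface-type cells. Ribosomal protein genes have many processed copies, and the counts of single genes are uncertain for that reason. Of 73 nuclear genes of oxidative phosphorylation, 13 were at least 2-fold higher than in surface-type cells, a share not far from the 14.4% of all genes, and 0 of 73 against remaining cells. Their median log2 ratios were 0.75 and 0.47, beside 0.297 and 0.157 for all genes.

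Mucus products did not share this direction. Of 16 genes compared in the list of mucus and goblet products, 3 were at least 2-fold higher (Itln1, Retnlb and Rep15) and 1 lower (Muc3). Beside these stood 14.4% and 2.97% of all genes, and the median log2 ratio of the list was -0.01. Muc2 was at 84.1 (82.9 to 85.3) in crypt-type against 131.8 (131.1 to 132.5) in surface-type cells, and Tff3, the trefoil peptide secreted with it, at 912.1 against 1342. Without the cells over the Paneth sum the ratios were 0.687 for Muc2 and 0.745 for Tff3. The gate genes, which chose the cells, were lower for Zg16 (1388 against 2441), Fcgbp (282.8 against 375.7) and Clca1 (116.2 against 152.5) and higher for Spink4 (318.6 against 166.5). Of 8 transcription factors of goblet cells, 1 was at least 2-fold higher, Creb3l4 (0.650 against 0.258), while Atoh1 (1.59 against 1.38) and Spdef (1.54 against 1.52), which specify and mature goblet cells, were close. Of 15 genes of mucin glycosylation, 1 was at least 2-fold higher, C1galt1c1 (1.73 against 0.819), the chaperone of the core 1 O-glycan synthase.

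All 3 genes of guanylin signaling and fluid transport that could be compared were at least 2-fold higher, namely Guca2a, Guca2b and Car8 (0.678 against 0.284), a protein of the carbonic anhydrase family. Of 16 antimicrobial and host defense genes, 6 were at least 2-fold higher and 1 lower, beside 14.4% and 2.97% of all genes. Without the Paneth-rich cells 3 of 16 were higher, beside 315 of all 2025 genes compared. The most abundant of these lectins and receptors differed less, with Reg3b at 31.7 against 23.5, Reg3g at 29.5 against 20.9 and Pigr, the receptor that carries IgA to the lumen, at 8.49 against 4.96. Among 3 chemokines other than Ccl6 and Ccl9, Cxcl16 was lower (0.463 against 1.39), and Ccl25 was at 0.552 against 0.334. No chemokine receptor reached a level of 0.5, and 16 of 20, Ccr1 among them, had no UMI in the crypt-type cells.

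**Figure D3:**
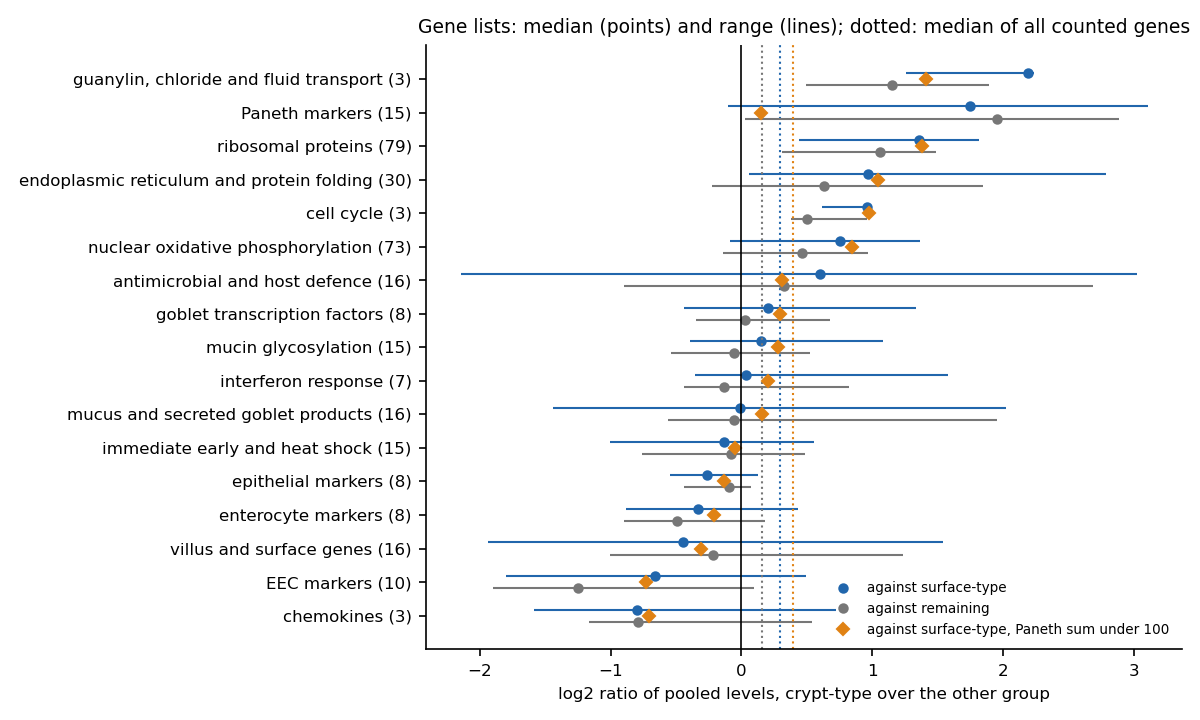
Log2 ratios of pooled levels, crypt-type over surface-type and over remaining goblet cells, as the median (points) and range (lines) of each gene list, with the number of genes compared in parentheses and dotted lines at the medians of all genes (0.297 and 0.157). Ribosomal protein genes (1.36) and endoplasmic reticulum genes (0.97) lie right of the line against surface-type cells, and villus and surface genes (-0.44) lie left of it.

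Most of the genes of the villus tip and cell surface compared were lower in crypt-type cells, but their sum differed little. Of 16 compared, 4 were at least 2-fold lower and 1 higher, beside 2.97% and 14.4% of all genes. The median log2 ratio was -0.44, and 4 had a ratio over 1. The list summed to 146.1 in crypt-type and 161.3 in surface-type cells, and to 163.4 and 163.8 without the cells over the Paneth sum. Single-cell medians of the sum were 156.9 and 154.5. Ido1, which breaks down tryptophan, was at 3.53 (3.29 to 3.79) in crypt-type, 13.3 (13.1 to 13.5) in surface-type and 8.11 in remaining cells. Mxd1, an antagonist of Myc, was at 3.30, 9.32 and 6.63 in the same order, and Egfr, the epidermal growth factor receptor, at 0.238, 0.912 and 0.470. Each of these genes was lowest in crypt-type cells and highest in surface-type cells. The 15 lowest ratios also held Sprr1a (0.467 against 3.46), a cornified envelope protein, the protease Ctse (0.0795 against 0.520), the complement regulator Cd55 (0.159 against 0.750), the alarmin Il33 (0.140 against 0.621) and the claudin Cldn4 (1.30 against 4.76). Krt20, a keratin of mature epithelium, was at 6.86 against 12.3.

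Stem cell and cycling genes were mostly at low levels. Lgr5 was at 0.0140 (0.00289 to 0.0410), Olfm4 at 0.0467 and Mki67 at 0.107 in crypt-type cells, none above free RNA (0.0149, 0.0498 and 0.135). Of 22 crypt base and Wnt target genes, only Prom1 reached 0.5 (0.505 against 0.683), and of 26 cell cycle genes 3 did. All 3 were higher in crypt-type than in surface-type cells, at 1.53 to 1.96 times, with a median log2 ratio of 0.96 beside 0.297 for all genes, and 1 of them passed 2-fold without the Paneth-rich cells (2.16 times). The 26 genes summed to 9.52 in crypt-type cells, 5.66 in surface-type cells and 10.2 in free RNA. Below that limit, Slc12a2, a chloride transporter of crypt cells, was at 0.383 against 0.150, and Sox9 at 0.294 against 0.102. Neither gene was high enough for the 2-fold counts.

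Markers of other cells were low or lower. Of 10 EEC markers compared, 4 were at least 2-fold lower and none higher, beside 2.97% and 14.4% of all genes. Among the 4 were Cck (17.5 against 50.1) and Ghrl (9.52 against 33.1), both of which were higher in free RNA (111 and 60.8). The EEC markers outside the rule, summed in single cells, had close medians of 45.8 in crypt-type and 50.4 in surface-type cells. Their 95th percentiles were 89.8 and 324.3, so the groups differed mostly in their highest cells. Of 8 enterocyte and 8 general epithelial markers, none differed 2-fold, and no tuft marker reached 0.5. Markers of leukocytes, in which Ccl6 and Ccl9 are well known, were near 0: the 19 myeloid and granulocyte markers summed to 0.421 in crypt-type, 0.283 in surface-type and 0.268 in remaining cells, with the 95th percentile of single cells at 1.53 and 1.69 in crypt-type and surface-type cells, and 10 of them, including Csf1r and Adgre1, had no UMI in crypt-type cells. Lymphocyte markers summed to 0.439, with only Gzma compared (0.271 against 0.544), and stromal markers to 0.00467. Of 7 interferon-response genes 1 was at least 2-fold higher (Bst2), of 15 immediate early genes 1 was lower (Klf2, 0.407 against 0.816), and neither Notch gene compared differed 2-fold.

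Within the 243 cells, levels differed with the number of Ccl9 UMIs, as the plot of crypt-type cells by Ccl9 shows. In cells with 1, 2 and 3 or more UMIs of Ccl9, the median summed level of ribosomal protein genes was 356.8, 710 and 1166, and that of the 4 gate genes 2698, 1794 and 1218. Guca2a was at 28.3 (27.3 to 29.2), 46.0 (44.0 to 48.1) and 62.5 (60.4 to 64.7) in the same cells, and Agr2 at 107.2, 115.2 and 148.5. Pdia6 went from 3.12 through 4.65 to 6.34 and Fkbp11 from 0.590 through 1.06 to 1.83, whereas Mxd1 went from 4.37 through 2.62 to 1.47 and Ido1 from 4.63 through 2.41 to 1.98. Other genes did not run further from surface-type cells with the Ccl9 count: Ccl6 was at 27.1, 25.1 and 19.9 and Atoh1 at 1.82, 1.28 and 1.34, while Retnlb (5.13, 7.68 and 6.66) and Egfr (0.270, 0.165 and 0.227) had no steady order. Ccl9 was part of the rule, so the split is a description. Median UMIs per cell were 7484, 9156 and 9930 and Lyz1 was at 26.1, 65.6 and 116.6, so depth and Paneth RNA moved with the Ccl9 count, and their part was not tested. In cells under the Paneth sum of 100, with Lyz1 at 4.24, 4.43 and 5.49, Guca2a was at 29.3, 48.2 and 76.3 and Agr2 at 112.2, 130.9 and 196.3. Retnlb, without a steady order over all 243 cells, rose with the Ccl9 count in these cells, at 4.53, 6.95 and 7.62. Egfr still had no steady order, at 0.272, 0.170 and 0.210.

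**Figure D4:**
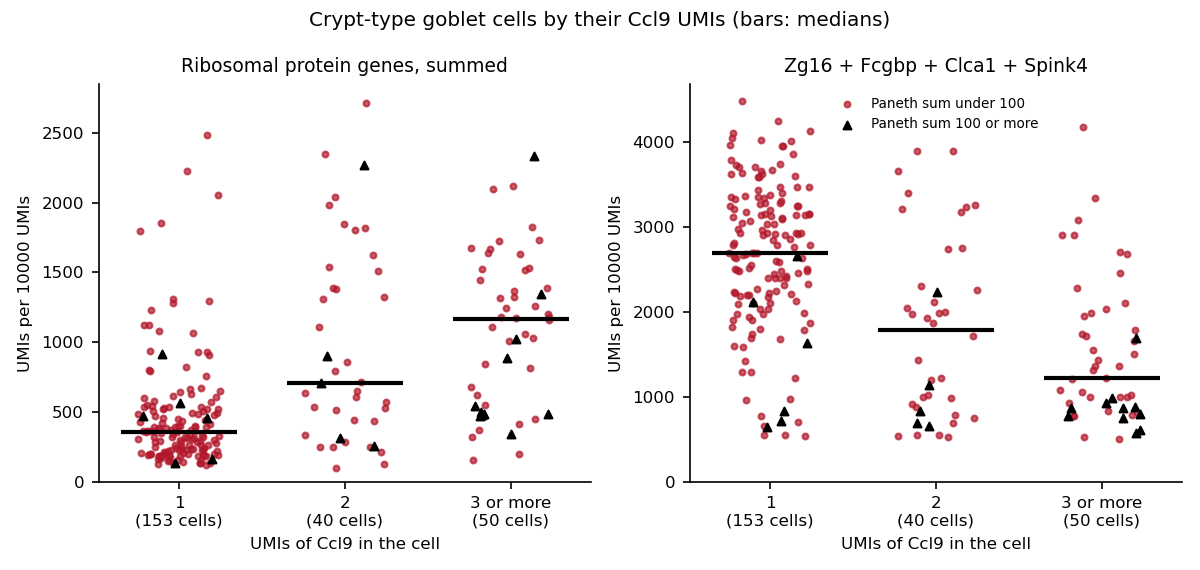
Levels in the 243 crypt-type goblet cells (UMIs per 10000 UMIs of the cell), each point a cell, split by the Ccl9 UMIs of the cell (153 with 1, 40 with 2, 50 with 3 or more), with bars at the medians. The summed level of ribosomal protein genes has medians of 356.8, 710 and 1166.

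Over the 243 cells, Guca2a followed Agr2 (Spearman's rho 0.561) and the ribosomal sum (0.609), and Ccl9 followed Guca2a less closely (0.267). The ribosomal sum and the sum of the 4 gate genes ran against each other (-0.854), and both are parts of the same total. The ribosomal sum had a rho of 0.265 with the UMIs of the cell. The 10% of members with the highest ribosomal sum, 25 cells, had a median gate sum of 704.3, Guca2a at 52.8, Agr2 at 114.4 and Mki67 at 0.607 (0.354 to 0.972). These values are descriptions over cells of 1 library, and no p-value was attached to them.

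The edges of the rule were looked at once. The lowest gate sum of a member was 506.7 and the highest just outside was 489.6, and the highest Chgb of a member was 18.9 and the lowest just outside 26.03. The 10 members with a gate sum of 500 to 600 had Guca2a at 35.4 and Agr2 at 117.2, and the 10 cells with a sum of 400 to 500 that met the other conditions had 26.5 and 87.5. The 6 members with Chgb of 10 to 20 had Guca2a at 24.6 and Cck at 234.7, and 6 cells with Chgb of 20 to 30 had 14.5 and 253.1. Ccl9 was at 2.92 inside and 8.55 outside the edge of the gate sum and Ccl6 at 14.7 and 8.99, so cells just outside were not the same as those just inside. The 44 cells left out for interferon-induced genes had Guca2a at 28.6 and Agr2 at 103.8, between those of crypt-type and surface-type cells. The 181 cells with both chemokines and 2010109I03Rik had pooled levels of 32.6 and 76.2. Their highest cell had Guca2a at 1464 and their median was 5.96, against medians of 21.5 in crypt-type and 5.82 in remaining cells. A further 114 cells outside the goblet gate had Ccl9 without passing the Paneth or EEC gates, with a median gate sum of 241.4, a ribosomal sum of 2210, Agr2 at 73.7 and Mki67 at 1.55.

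The bulk libraries asked whether genes of the crypt-type cells differ between CCK+ and CCK- cells, and with refeeding. All 4 bulk records carry a title that names CCK+ cells, and the cell-type labels were used. Cck was at 27.6 to 86.0 normalized counts in the CCK- and 14837 to 32592 in the CCK+ libraries. In such bulk samples, fewer cells of a type and less RNA per cell cannot be told apart. Most of the 15 genes with the highest droplet ratios were Paneth cell genes, as given above, so counts that include them describe Paneth genes in large part. The genes counted were those 15 and the 5 markers. Of these 20, limma with Benjamini-Hochberg adjustment over 22042 genes called 3 higher (Agr2, Pdia5 and Gm21002) and 0 lower in CCK+ cells, where 19.6% of all genes were higher and 14.1% lower. The count of 3 became 1 without any of the CCK- libraries of mice B, C and E or the CCK+ libraries of mice A, C and D. Refeeding gave 1 higher and 0 lower in CCK- cells, where 0.708% of all genes were higher and 0.526% lower. In CCK+ cells it gave 0 in either direction, where 1.31% were higher and 1.23% lower. Of the 20, 9 had an unadjusted limma p under 0.05 there, beside 3736 of all 22042 genes. Of the same 20, 2, Ccl6 and Guca2a, passed when genes with a mean under 10 were left out. The count of 0 became 1 or 2 without the CCK- library of mouse F or C or the CCK+ library of mouse A. Gm21002, a defensin gene with a mean of 11.0 over the 12 libraries, overlapped between CCK+ and CCK- libraries. With the 19 genes chosen without the Paneth-rich cells, the counts were 7 higher and 2 lower in CCK+ cells (Lman1 and Ctsh), 1 higher on refeeding in CCK- cells (Agr2), and 3 higher on refeeding in CCK+ cells (Pdia4, Pdia6 and Sdf2l1).

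Agr2 stood out among the markers. In the droplet library it was also at 25.7 in EEC-gated cells and at 2.25 in enterocyte-gated cells. The part of EECs in the bulk difference of Agr2 was not tested. In CCK+ cells it was at 2442, 1529 and 2535 normalized counts in fasted mice A, B and F and 2911, 3048 and 2081 in refed mice C, D and E, and in CCK- cells at 253.7, 263.7 and 319.3 in fasted and 534.7, 581.7 and 548.4 in refed mice. Every CCK+ library was above every CCK- library, and in CCK- cells every refed library was above every fasted one. On the log2(normalized count + 1) scale Agr2 was higher in CCK+ cells by 2.59 (SE 0.14, limma adjusted p = 9.34e-09). On refeeding it rose by 1.00 in CCK- cells (SE 0.20, limma adjusted p = 0.0297), a call lost without any of 10 of the 12 libraries (adjusted p up to 0.157) and kept without the CCK+ library of mouse B or of mouse E, and in CCK+ cells the difference was 0.32 (adjusted p = 0.46). The difference between the refeeding effects in CCK+ and CCK- cells did not pass for Agr2 or any other of the 430 genes looked up in bulk (limma interaction term).

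Guca2a was at 206.9, 252.5 and 173.2 in fasted and 106.5, 95.5 and 94.3 in refed CCK+ cells, and at 322.8, 281.8 and 143.9 in fasted and 132.1, 149.2 and 174.4 in refed CCK- cells. The CCK+ groups did not overlap and the CCK- groups did. The refed minus fasted log2 difference was -1.07 in CCK+ cells (SE 0.27, limma adjusted p = 0.0517), with an adjusted p of 0.0481 when the mouse was a replicate block and 0.041 when genes with a mean under 10 were left out. Guca2b, the second ligand of the same receptor, fell by 1.43 on the log2 scale on refeeding in CCK+ cells (SE 0.26, limma adjusted p = 0.0118), a call lost without the CCK+ library of mouse B, D or E (adjusted p up to 0.0899).

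Ccl6 was at 58.6, 76.9 and 50.6 in fasted and 135.5, 116.2 and 114.2 in refed CCK+ cells, which did not overlap, and between 70.3 and 86.0 in fasted and between 74.2 and 120.9 in refed CCK- cells. Its log2 difference in CCK+ cells was 0.98 (SE 0.25, limma adjusted p = 0.0581, and 0.0395 when genes with a mean under 10 were left out). Ccl9 was at 16.3, 31.4 and 94.6 in fasted and 36.3, 52.1 and 24.3 in refed CCK+ cells, and at 33.9, 32.6 and 38.2 in fasted and 44.2, 59.1 and 31.7 in refed CCK- cells. The fasted CCK+ library of mouse F was the highest for Ccl9, without which the refed minus fasted difference was 0.64 in place of -0.03, and no comparison of Ccl9 or Retnlb passed the threshold. Retnlb was between 0 and 29.2 normalized counts in all 12 libraries.

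**Figure D5:**
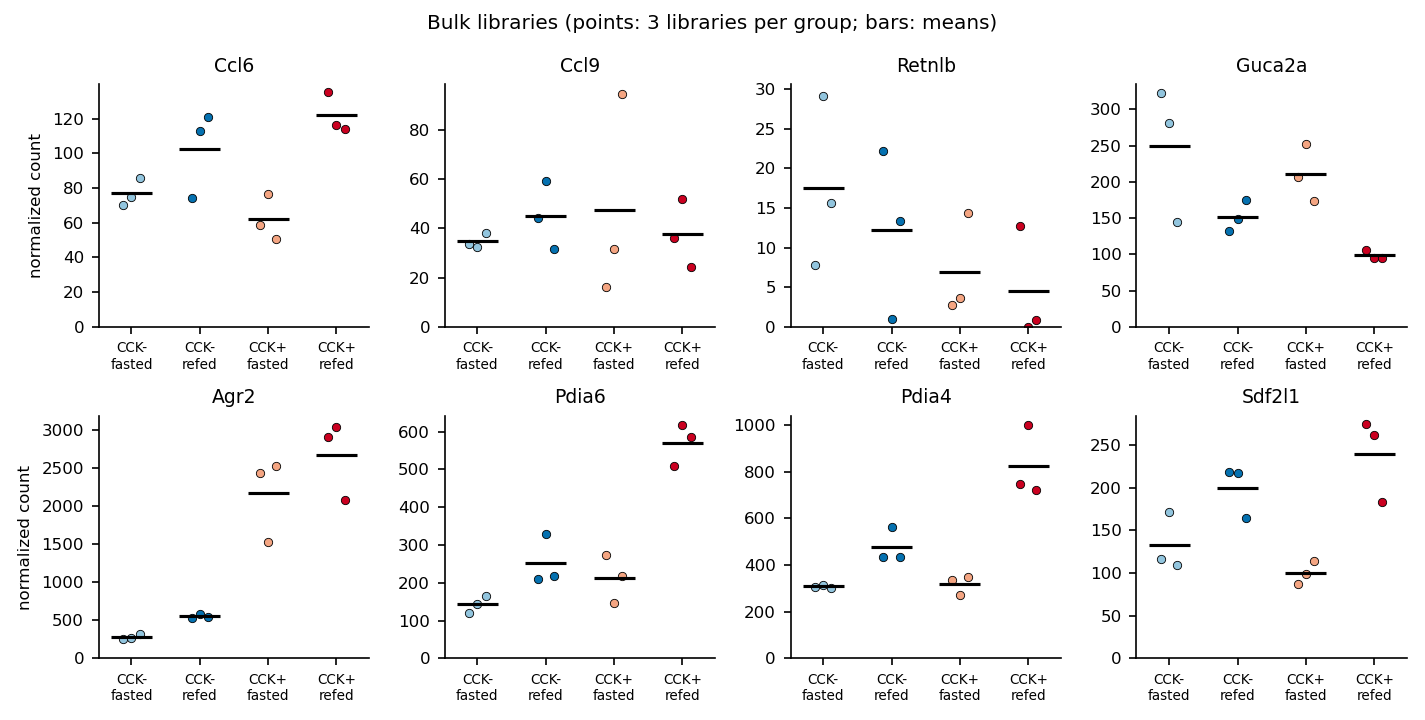
Normalized counts of crypt-type goblet genes in the 12 bulk libraries, 3 points per group for the libraries and bars for the means, in CCK- and CCK+ cells of fasted and refed mice. Agr2 in CCK+ cells (1529 to 3048) lies above all CCK- libraries (253.7 to 581.7), and Pdia6 in refed CCK+ cells (510.0 to 616.4) lies above fasted CCK+ cells (145.8 to 273.7).

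Of the endoplasmic reticulum list, 10 of 36 genes rose on refeeding in CCK+ cells and 4 of 36 in CCK- cells, and none fell, with limma adjusted p under 0.05 over all genes, of which 1.31% were higher in CCK+ and 0.708% in CCK- cells. The 10 became 6 without the fasted CCK+ library of mouse B and 3 without the refed CCK+ library of mouse D, and the 4 became 0 to 2 without any one CCK- library or the refed CCK+ library of mouse C or D. The 10 were Hspa5, Hsp90b1, Pdia3, Pdia4, Pdia6, Dnajc3, Sdf2l1, Manf, Creld2 and Hyou1, and the 4 were Agr2, Hsp90b1, Creld2 and Kdelr3. Pdia6 was at 273.7, 145.8 and 218.2 in fasted and 510.0, 616.4 and 584.7 in refed CCK+ cells, a log2 rise of 1.46 (SE 0.24, limma adjusted p = 0.00689). Pdia4 was at 336.9, 273.1 and 347.6 against 747.4, 1003 and 721.1, a rise of 1.36 (SE 0.17, limma adjusted p = 0.00283). Sdf2l1 was at 87.3, 98.3 and 113.8 against 274.5, 261.1 and 183.2, a rise of 1.24 (SE 0.23, limma adjusted p = 0.0146). None of the refed libraries overlapped the fasted ones for these 3 genes in CCK+ cells. The call of Pdia4 held without any of the 12 libraries, that of Pdia6 was lost without the refed CCK+ library of mouse D or E (adjusted p up to 0.0727), and that of Sdf2l1 without the CCK+ library of mouse B, C or D (up to 0.0871). Fkbp11, among the highest in crypt-type goblet cells, did not pass in any comparison, and its log2 difference on refeeding in CCK+ cells was -0.04. Between CCK+ and CCK- cells the same list had 11 of 36 genes higher and 10 lower, beside 19.6% and 14.1% of all genes, so it had no common direction there.

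Other lists moved with the CCK comparison too. Ribosomal protein genes were higher in CCK+ cells for 72 of 80 (median log2 1.00, beside 0.09 for all genes), and none passed on refeeding. Lymphocyte markers were higher in CCK+ libraries for 9 of 12 and myeloid markers for 9 of 16, and EEC markers for 17 of 18, where 19.6% of all genes were higher. Their part in the CCK+ and CCK- differences of crypt-type goblet genes was not tested.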

How the data were processed

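For the droplet library, the authors aligned the reads to mm10 with Cell Ranger 2.0.1 and deposited raw UMI counts for all barcodes. Counts were summed per group of cells and divided by the groups' total UMIs, with exact Poisson and Clopper-Pearson 95% intervals, in Python 3.11.15 with numpy 2.4.6, scipy 1.17.1 and scanpy 1.11.5 (seed 1). Thinning was to 2000 UMIs. Genes with a level of at least 0.5 in either group were compared, and 2-fold was the limit. The genes named were the 5 markers, the genes of the rule, the 15 highest and 15 lowest ratios, and, in each gene list, the most abundant members and those past 2-fold. The cells, genes and lists were chosen with earlier results of these data known. Ratios of low genes rest on few UMIs.

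For the bulk libraries, the deposited values are signal on the authors' scale. Reads were trimmed with Trim Galore 0.6.7 and quantified with Salmon 1.6.0 on GRCm39 transcripts, summed per gene with tximeta and divided by DESeq2 size factors, and genes with at most 1 count were removed. They are not whole, and the depth in reads is unknown. limma 3.58.1 in R 4.3.3 was fitted with a mean-variance trend to log2(normalized count + 1) of 22042 genes, with a mean for each of 4 groups and 3 libraries a group. Same-letter libraries were taken to come from 1 mouse, and the correlations of their deviations from the group means were 0.162 to 0.344 over 7623 genes. On simulated data, this fit made more false calls than its threshold allows, mostly of genes with means under 10, so calls of such genes were not read. In the fit without those genes, false calls were 3.18% to 5.59% of all calls. They passed the threshold only for 4-fold changes on refeeding in CCK+ cells.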

Additional observations from a re-analysis of the deposited data

How the results depend on the processing

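Of 261 values of single genes and lists under other settings, leave-one-out fits aside, 170 kept their call or stayed within counting error, 88 moved past counting error and 3 bulk calls were gained, and none changed direction. The number of crypt-type cells was 87 with 2 UMIs of each chemokine required, 132 after thinning and 156 among cells of 5000 to 10000 UMIs. Genes past 2-fold against surface-type cells, 340, became 603 with 2 UMIs required, 149 at a level of at least 2 and 953 at a level of at least 0.1, and against remaining cells, 128, became 343, 83 and 398, and 78 among cells of 5000 to 10000 UMIs. Over 10 settings, the ratio to surface-type cells was 3.96 to 5.79 for Guca2a, 2.01 to 2.6 for Agr2 and 2.07 to 4.04 for Retnlb, but 1.12 to 8.39 for Lyz1. Settings of the depth window, the Paneth sum and the gate genes were chosen after seeing the data.

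In bulk, the genes called between CCK+ and CCK- cells went from 3 to 1 with a pseudocount of 10 and to 9 with the list without Paneth-rich cells. On refeeding in CCK+ cells the count went from 0 to 2 (Ccl6 and Guca2a) with a mean of at least 10, and to 3 with that list. With the mouse as a replicate block it went to 1 (Guca2a), although refed and fasted libraries come from different mice and are not paired. The block added 4 calls of the endoplasmic reticulum list between CCK+ and CCK- cells (21 to 25 genes). It changed no other call of that list, of the crypt-type goblet genes chosen with or without Paneth-rich cells, or of Guca2b. Calls of the other genes looked up were not compared under the block. Leaving out 1 library gave counts of 1 to 3, 0 to 1 and 0 to 2 in the 3 comparisons, and of 17 to 22, 0 to 4 and 3 to 10 for the endoplasmic reticulum list (21, 4 and 10 with all libraries). It gave log2 differences between CCK+ and CCK- cells of -0.13 to 0.04 for Ccl6, -0.44 to 0.18 for Ccl9 and -0.13 to 0.03 for Sdf2l1, of -1.64 to 0.16 for Retnlb on refeeding in CCK- cells and of -0.59 to 0.64 for Ccl9 on refeeding in CCK+ cells. The cause was not tested.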
